A study of Mus musculus with 14 samples.

Results

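The 10 genes followed here act in tissue repair: the matrix proteins Fn1 and Tgfbi, the latency protein Ltbp1, the ligands Tgfb1 and Tgfb2, and the growth factors Pdgfa, Pdgfb, Igf1, Vegfa and Hgf. They were taken by name, as every array probe whose RefSeq accession maps to one of the 10 symbols. This gave 17 probes for 10 of the 20342 genes tested, and all 10 genes passed the filter on dim probes. Tgfb1 had 1 probe printed as 10 spots, Igf1 had 4 probes, Tgfb2, Pdgfa, Pdgfb and Vegfa had 2 each, and the other genes had 1. Where a gene had several probes the brightest was used, and the others are given beside it.

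RNA was measured on 14 single-colour Agilent mouse arrays of macrophages from the peritoneal cavity of C57BL/6 mice, sorted as double positive for CD11b and F4/80. The mice had been injected intraperitoneally with the vehicle PBS (3 arrays), with IL-4c (4 arrays), with thioglycollate medium (Thio, 3 arrays) or with both (Thio+IL-4c, 4 arrays). The treatment label of the PBS samples is PBS vehicle control, while their titles call them untreated. IL-4c was 5 µg of interleukin 4 held in a complex with 25 µg of its antibody 11B11, which prolongs the action of the cytokine. Thioglycollate was given as 2 ml of a 4% medium, an irritant that draws monocytes into the cavity. The comparison of interest to the study is between macrophages of tissue origin and macrophages of monocyte origin, each with and without interleukin 4. The labels call the PBS cells resident, and they give neither age, sex nor the time between injection and harvest. They do not say that arrays of a group came from separate mice, so p-values measure the spread between these samples, which may be technical. The groups rest on surface sorting of cavity cells, and the labels mention no lineage tracing.

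Transforming growth factor beta is secreted bound to its own propeptide and to a latency protein such as the product of Ltbp1, which tethers it to the matrix until integrins or proteases release it. The released ligand binds type II and type I receptors, which pass the signal to Smad proteins. Fibronectin, the product of Fn1, and the product of Tgfbi, a secreted adhesion protein named for its induction by this ligand, are laid down in healing tissue. The platelet-derived growth factors draw in fibroblasts and smooth muscle cells, insulin-like growth factor 1 supports growth and survival, vascular endothelial growth factor A drives vessel growth, and hepatocyte growth factor acts on epithelium through the receptor Met. Macrophages are a source of many of these factors in wounds.

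Fn1, Tgfbi, Ltbp1 and Tgfb2 each had their highest level of the 4 groups in the PBS cells. IL-4c alone lowered 7 of the 10 genes, among them all 5 of the TGF-beta and matrix genes, where 15.4% of all genes tested were lower. In Thio against PBS, Ltbp1 was 712-fold and Tgfb2 161-fold lower, while Pdgfa was 7.34-fold, Vegfa 5.64-fold and Igf1 2.73-fold higher. The rise of Igf1 did not pass on those of its probes that gave log2 differences of 0.58 and 0.02. IL-4c acted on Tgfbi in opposite directions in the 2 settings: it lowered it 10.6-fold without thioglycollate and raised it 5.48-fold in thioglycollate mice. Fn1 moved likewise, 1.86-fold down and 2.75-fold up. Its fall with IL-4c alone appeared only after scaling to array brightness and did not pass under quantile normalization. The fall of Tgfb1 with IL-4c alone likewise appeared only after scaling. Hgf fell with IL-4c in both settings, 6.67-fold and 17.1-fold.

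Promoter sequence could be shown for 8 of the 10 genes, from RefSeq's GRCm38.p6 table of gene starts; Fn1 and Pdgfb had no entry. The stretches below are the bases before the annotated start, read 5′ to 3′ on the gene's strand. They are shown because these 4 genes carry the largest changes (Ltbp1, Tgfb2), the reversal (Tgfbi) and the like fall in both settings after scaling (Tgfb1). Capitals mark the Smad box, CAGAC or its reverse complement GTCTG.
Tgfbi (chr13:56609336-56609585, plus strand): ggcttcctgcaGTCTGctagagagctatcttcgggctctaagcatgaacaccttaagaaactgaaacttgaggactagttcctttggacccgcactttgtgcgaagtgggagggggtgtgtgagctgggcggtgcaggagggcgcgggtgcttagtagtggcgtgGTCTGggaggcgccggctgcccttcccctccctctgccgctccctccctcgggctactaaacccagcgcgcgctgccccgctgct
Ltbp1 (chr17:75005279-75005479, plus strand): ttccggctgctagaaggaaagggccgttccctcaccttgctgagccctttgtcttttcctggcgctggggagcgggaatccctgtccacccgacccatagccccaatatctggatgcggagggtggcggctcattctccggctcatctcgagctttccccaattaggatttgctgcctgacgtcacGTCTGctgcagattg
Tgfb1 (chr7:25686752-25687001, plus strand): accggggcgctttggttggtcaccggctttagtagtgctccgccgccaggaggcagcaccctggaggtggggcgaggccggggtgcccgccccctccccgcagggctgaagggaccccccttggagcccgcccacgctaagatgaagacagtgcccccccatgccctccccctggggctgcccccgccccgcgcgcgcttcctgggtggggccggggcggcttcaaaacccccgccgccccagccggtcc
Tgfb2 (chr1:186705990-186706239, minus strand): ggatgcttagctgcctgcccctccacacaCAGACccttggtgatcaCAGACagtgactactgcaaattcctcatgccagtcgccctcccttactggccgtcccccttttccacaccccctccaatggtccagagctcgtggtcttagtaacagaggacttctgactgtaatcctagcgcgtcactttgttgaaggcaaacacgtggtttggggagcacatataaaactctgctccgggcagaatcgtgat
The stretch of Tgfbi held 2 Smad boxes, that of Ltbp1 held 1 in 201 bases, that of Tgfb2 held 2 and that of Tgfb1 held 0. The Tgfb2 stretch belongs to a start site inside the longest gene model. Of all 32851 promoters in the table, 42.2% held at least 1 Smad box in 250 bases on either strand. The GC box GGGCGG occurred 5 times before Tgfb1, against 32.7% of all promoters with at least 1. The STAT6 site (TTC and GAA with any 4 bases between them), which 5.85% of promoters held, was in none of the members' 12 windows. These matches describe letters only.

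The 10 genes lie on 7 chromosomes of GRCm38.p6. Fn1 spans chr1:71585473-71653280 and Tgfb2 spans chr1:186622787-186709697. Tgfbi spans chr13:56609586-56639359, Ltbp1 spans chr17:75005480-75392512 and Tgfb1 spans chr7:25687002-25705077. Pdgfa spans chr5:138976014-139000792 and Hgf spans chr5:16553495-16619439. Pdgfb spans chr15:79995865-80024614, Igf1 spans chr10:87858265-87937047 and Vegfa spans chr17:46016993-46032377. The position of each probe within its gene was not analysed here.

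The arrays carried 62976 spots each, and 79.1% to 95.6% of the probes were well above background. Brightness differed between arrays, with a 75th percentile of 1271 in the dimmest PBS array and 3866 in the brightest IL-4c array, so each array was scaled to its own. Slide 1 held all PBS and IL-4c arrays and Thio 1, and slide 2 held Thio 2, Thio 3 and all Thio+IL-4c arrays. Over genes, the other two Thio arrays correlated with each other at r = 0.984 but with Thio 1 at only 0.848 and 0.865, and Thio 1 correlated with the PBS arrays at 0.917 to 0.931. The members' comparisons with Thio are therefore given below also without Thio 1 or with the slide as a block. Each gene of the pathway lists named below for Thio against PBS or for Thio+IL-4c against Thio kept its direction and its call with that block. The macrophage genes Itgam, Adgre1 and Csf1r were well above background on all 14 arrays. Gata6, which specifies peritoneal macrophages of the resident kind, had a mean level of 3.13 in PBS and 3.18 in IL-4c but -2.81 in Thio and -2.11 in Thio+IL-4c. Arg1, a gene that interleukin 4 induces, rose from 3.35 in PBS to 7.41 in IL-4c and from 3.66 in Thio to 7.32 in Thio+IL-4c. Retnla, a further check of the labels, differed less without thioglycollate. Its mean level was 6.91 in PBS and 7.46 in IL-4c, and 3.55 in Thio and 7.58 in Thio+IL-4c.

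A level below is the log2 of the processed signal minus the log2 of its array's 75th percentile, so that 0 is the level of that percentile. Levels of different probes are not on 1 scale and were not set against each other. A difference is between group means on this log2 scale, with its standard error. A gene passed the test at a limma p-value under 0.05, two-sided, after Benjamini-Hochberg adjustment over all 20342 genes. In a sorted bulk sample, fewer cells that express a gene and less RNA in each cell cannot be told apart. Words such as raised and lowered therefore compare groups of sorted cells and do not state a response within a cell.

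**Figure D1:**
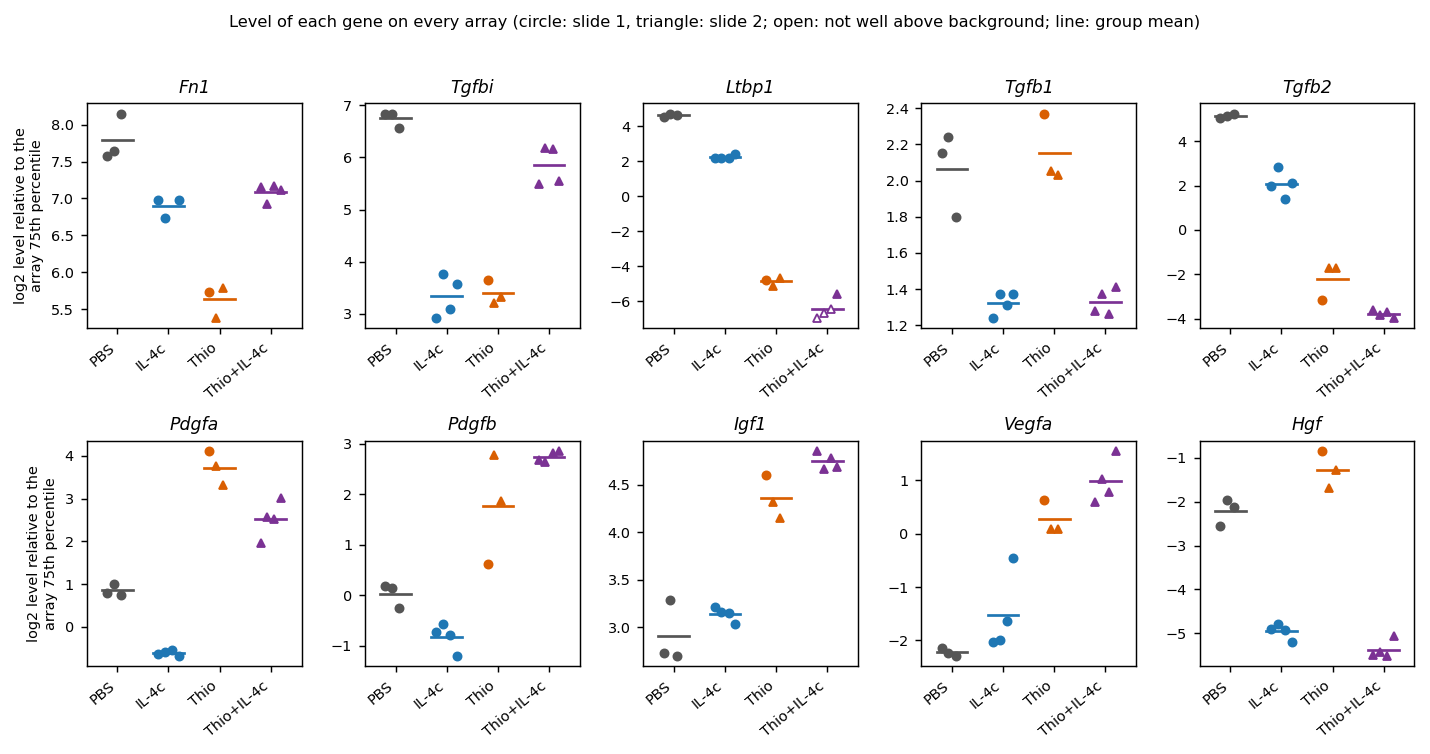
Log2 level of each gene relative to the array's 75th percentile (vertical axis) on each of the 14 arrays, by group (horizontal axis). Circles are slide 1, triangles slide 2, open symbols are spots not well above background and lines are group means; Ltbp1 and Tgfb2 drop steeply in both groups with thioglycollate, while Tgfbi and Fn1 are lowest in IL-4c or Thio and higher again in Thio+IL-4c.

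Fn1 encodes fibronectin, a scaffold protein of early wound matrix. Its level was 7.57, 7.65 and 8.15 in PBS, 6.98, 6.74 and 6.98 in IL-4c arrays 1, 2 and 4, 5.73, 5.38 and 5.79 in Thio, and 7.15, 6.92, 7.17 and 7.12 in Thio+IL-4c. The spot of IL-4c 3 was marked an outlier by the scanner software and left out. The order of means was PBS (7.79 ± 0.32, SD), Thio+IL-4c (7.09 ± 0.12), IL-4c (6.90 ± 0.14) and Thio (5.63 ± 0.22). PBS lay above every other array and Thio below every other array, while Thio+IL-4c and IL-4c overlapped. IL-4c lowered Fn1 1.86-fold against PBS, a difference of -0.89 ± 0.17 (SE, adjusted p = 0.0021), a call that is lost under quantile normalization (-0.22, adjusted p = 0.32). Before scaling, the processed signal was 344000 to 364000 in PBS and 385000 to 429000 in IL-4c, so this fall of Fn1 appears only after scaling. Thioglycollate lowered it 4.47-fold (-2.16 ± 0.17, adjusted p = 3.3e-06), with -1.21 under quantile normalization. On top of thioglycollate, IL-4c raised it 2.75-fold (1.46 ± 0.16, adjusted p = 3.4e-05).

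Tgfbi encodes a secreted protein that binds collagen and integrins. Its level was 6.83, 6.84 and 6.57 in PBS, 2.92, 3.76, 3.10 and 3.57 in IL-4c, 3.64, 3.21 and 3.33 in Thio, and 5.49, 6.19, 6.16 and 5.55 in Thio+IL-4c. Means fell into a high pair and a low pair: PBS at 6.75 ± 0.15 and Thio+IL-4c at 5.85 ± 0.38 against Thio at 3.39 ± 0.22 and IL-4c at 3.34 ± 0.40 (SD). The 2 low groups overlapped, and no other neighbours did. IL-4c alone lowered Tgfbi 10.6-fold (-3.41 ± 0.24, adjusted p = 7.3e-07). Thioglycollate alone lowered it 10.2-fold (-3.35 ± 0.26, adjusted p = 1.1e-06). In thioglycollate mice, IL-4c raised it 5.48-fold (2.45 ± 0.24, adjusted p = 7.6e-06). Between the 2 IL-4c groups it was 5.70-fold higher with thioglycollate (2.51 ± 0.22, adjusted p = 2.5e-06).

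Ltbp1 encodes the latent TGF-beta binding protein that anchors the latent complex. Its level was 4.52, 4.73 and 4.63 in PBS, 2.17, 2.20, 2.20 and 2.43 in IL-4c, -4.77, -5.13 and -4.65 in Thio, and -6.95, -6.67, -6.42 and -5.60 in Thio+IL-4c. No 2 groups overlapped. Only 1 of the 4 Thio+IL-4c arrays was well above background, so differences that involve that group are less exact than the others. The Thio arrays were all well above background but dim, with processed signals of 84 to 142. The lowest level well above background on Thio 2 was -5.41. IL-4c lowered it 5.20-fold against PBS (-2.38 ± 0.26, adjusted p = 2e-05). Thioglycollate lowered it 712-fold (-9.48 ± 0.27, adjusted p = 6.2e-10), the largest difference from PBS among the members, with a range of -9.64 to -8.30 over the alternatives. The further fall with both agents (-1.56 ± 0.26 against Thio, adjusted p = 0.00044) was -0.53 under normexp, and lost its call in the authors' deposited log2 table (-0.20, adjusted p = 0.39).

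Tgfb1 encodes the main TGF-beta of immune cells. Its level was 2.15, 2.24 and 1.80 in PBS, 1.24, 1.37, 1.31 and 1.37 in IL-4c, 2.37, 2.05 and 2.03 in Thio, and 1.28, 1.37, 1.26 and 1.41 in Thio+IL-4c. The groups without IL-4c overlapped each other, the groups with IL-4c overlapped each other, and every array without IL-4c lay above every array with it. IL-4c lowered Tgfb1 1.67-fold in PBS mice (-0.74 ± 0.12, adjusted p = 0.00058) and 1.77-fold in thioglycollate mice (-0.82 ± 0.12, adjusted p = 0.00022). Before scaling, the processed signal was 4420 to 8530 in PBS and 7880 to 10000 in IL-4c. The fall in PBS mice thus appears only after scaling. It ran from -0.87 to -0.43 over the alternatives, with adjusted p up to 0.04. In thioglycollate mice the signal was lower before scaling too, at 11900 to 14600 in Thio and 4940 to 6560 in Thio+IL-4c. Thio differed from PBS by 0.09 ± 0.13 (adjusted p = 0.59), and Thio+IL-4c from IL-4c by 0.01 ± 0.11 (adjusted p = 0.96).

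Tgfb2 encodes a second ligand of the same receptors. Its level was 5.03, 5.12 and 5.24 in PBS, 1.97, 2.83, 1.40 and 2.10 in IL-4c, -3.16, -1.70 and -1.73 in Thio, and -3.62, -3.82, -3.69 and -3.97 in Thio+IL-4c. The groups followed that order with no overlap, and Thio 1 was the lowest of its group. IL-4c lowered Tgfb2 8.31-fold against PBS (-3.06 ± 0.37, adjusted p = 4.6e-05). Thioglycollate lowered it 161-fold (-7.33 ± 0.39, adjusted p = 6.1e-08). In thioglycollate mice IL-4c lowered it a further 2.99-fold (-1.58 ± 0.37, adjusted p = 0.0046). The other Tgfb2 probe gave -3.61, -8.70 and -2.46 for the same 3 differences, in the same directions.

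Pdgfa encodes the A chain of platelet-derived growth factor. Its level was 0.80, 1.0 and 0.75 in PBS, -0.64, -0.58, -0.54 and -0.68 in IL-4c, 4.10, 3.76 and 3.31 in Thio, and 1.95, 2.57, 2.51 and 3.01 in Thio+IL-4c. The order was Thio, Thio+IL-4c, PBS and IL-4c, with no overlap between neighbours. Thioglycollate raised Pdgfa 7.34-fold (2.88 ± 0.24, adjusted p = 2.7e-06). IL-4c lowered it 2.75-fold against PBS (-1.46 ± 0.23, adjusted p = 0.00035) and 2.32-fold against Thio (-1.22 ± 0.23, adjusted p = 0.0011). The other probe gave 3.07, -1.47 and -1.24 for these differences. Before scaling, the processed signal of the used probe overlapped between PBS (2130 to 3630) and IL-4c (1900 to 2590).

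Pdgfb encodes the B chain, which pairs with itself or with the A chain. On the brighter probe its level was 0.19, 0.14 and -0.26 in PBS, -0.73, -0.56, -0.78 and -1.20 in IL-4c, 0.63, 2.78 and 1.87 in Thio, and 2.68, 2.65, 2.82 and 2.85 in Thio+IL-4c. The Thio arrays spread widely, with Thio 1 the lowest, and they overlapped Thio+IL-4c. Thio was 3.32-fold above PBS (1.73 ± 0.40, adjusted p = 0.0052), but with the slide as a block the difference was 0.60 (adjusted p = 0.21), while without Thio 1 it was 2.30 (adjusted p = 1.9e-05). IL-4c differed from PBS by -0.84 ± 0.38 (adjusted p = 0.12), with the slide as a block by the same amount at adjusted p = 0.0081. Thio+IL-4c differed from Thio by 0.99 ± 0.38 (adjusted p = 0.056), and by 0.43 with the slide as a block (adjusted p = 0.2). Thio+IL-4c was 11.8-fold above IL-4c (3.57 ± 0.35, adjusted p = 5.4e-06). The dimmer probe did not share the rise: it gave -0.59 for Thio against PBS (adjusted p over all probes 0.15) and -0.55 for Thio+IL-4c against IL-4c (adjusted p over all probes 0.093). The direction for Pdgfb in thioglycollate mice therefore depends on the probe.

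Igf1 encodes insulin-like growth factor 1. Its level was 2.73, 3.29 and 2.70 in PBS, 3.21, 3.16, 3.15 and 3.04 in IL-4c, 4.60, 4.32 and 4.15 in Thio, and 4.85, 4.67, 4.78 and 4.69 in Thio+IL-4c. PBS and IL-4c overlapped, both lay below both thioglycollate groups, and every Thio+IL-4c array lay above every Thio array. Thioglycollate raised Igf1 2.73-fold (1.45 ± 0.16, adjusted p = 2.5e-05), and Thio+IL-4c was 3.05-fold above IL-4c (1.61 ± 0.14, adjusted p = 2.2e-06). IL-4c differed from PBS by 0.23 ± 0.15 (adjusted p = 0.31). Over the alternatives this difference ran from 0.04 to 0.54 and passed in 2 of 19 (lowest adjusted p = 0.027). In thioglycollate mice IL-4c made a difference of 0.39 ± 0.15 (adjusted p = 0.06), and within slide 2 of 0.51 (adjusted p = 0.012). Of the other 3 probes, 1 followed the used probe with 1.48 for Thio against PBS, while the other two gave 0.58 (adjusted p over all probes 0.088) and 0.02. The last of these gave -0.57 for IL-4c against PBS (adjusted p over all probes 0.047), opposite in sign to the used probe, and 0.74 for Thio+IL-4c against Thio (adjusted p over all probes 0.011). For the latter the probe that followed the used one gave 0.45 (adjusted p over all probes 0.039) and the remaining one 0.06.

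Vegfa encodes vascular endothelial growth factor A. Its level was -2.15, -2.24 and -2.29 in PBS, -2.03, -2.0, -1.64 and -0.46 in IL-4c, 0.64, 0.08 and 0.08 in Thio, and 0.60, 1.02, 0.79 and 1.54 in Thio+IL-4c. The thioglycollate groups overlapped each other and lay above the others, and IL-4c 4 was the highest of its group. Thioglycollate raised Vegfa 5.64-fold (2.50 ± 0.38, adjusted p = 0.00027), and Thio+IL-4c was 5.74-fold above IL-4c (2.52 ± 0.33, adjusted p = 4.8e-05). The dimmer probe gave 1.39 (adjusted p over all probes 0.0044) and 2.08 (adjusted p over all probes 5.1e-05) for these. IL-4c differed from PBS by 0.70 ± 0.35 (adjusted p = 0.17) and Thio+IL-4c from Thio by 0.72 ± 0.35 (adjusted p = 0.13). On the dimmer probe both IL-4c differences passed, at 0.93 (adjusted p over all probes 0.031) and 1.63 (adjusted p over all probes 0.00088). With the mean of both probes they also passed, at 0.81 (adjusted p = 0.045) and 1.17 (adjusted p = 0.0057).

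Hgf encodes hepatocyte growth factor. Its level was -2.56, -1.96 and -2.13 in PBS, -4.91, -4.78, -4.92 and -5.20 in IL-4c, -0.86, -1.69 and -1.27 in Thio, and -5.50, -5.43, -5.51 and -5.05 in Thio+IL-4c. The 2 groups with IL-4c overlapped and lay below both others, and all arrays were well above background. IL-4c lowered Hgf 6.67-fold against PBS (-2.74 ± 0.21, adjusted p = 1.4e-06) and 17.1-fold against Thio (-4.10 ± 0.21, adjusted p = 5.6e-08). Both calls held but the values were smaller under normexp (-2.11 and -2.91) and in the authors' deposited log2 table (-1.72 and -2.72). Thio was 1.92-fold above PBS (0.94 ± 0.22, adjusted p = 0.0059), which did not pass when the fit held only those 2 groups (adjusted p = 0.079).

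**Figure D2:**
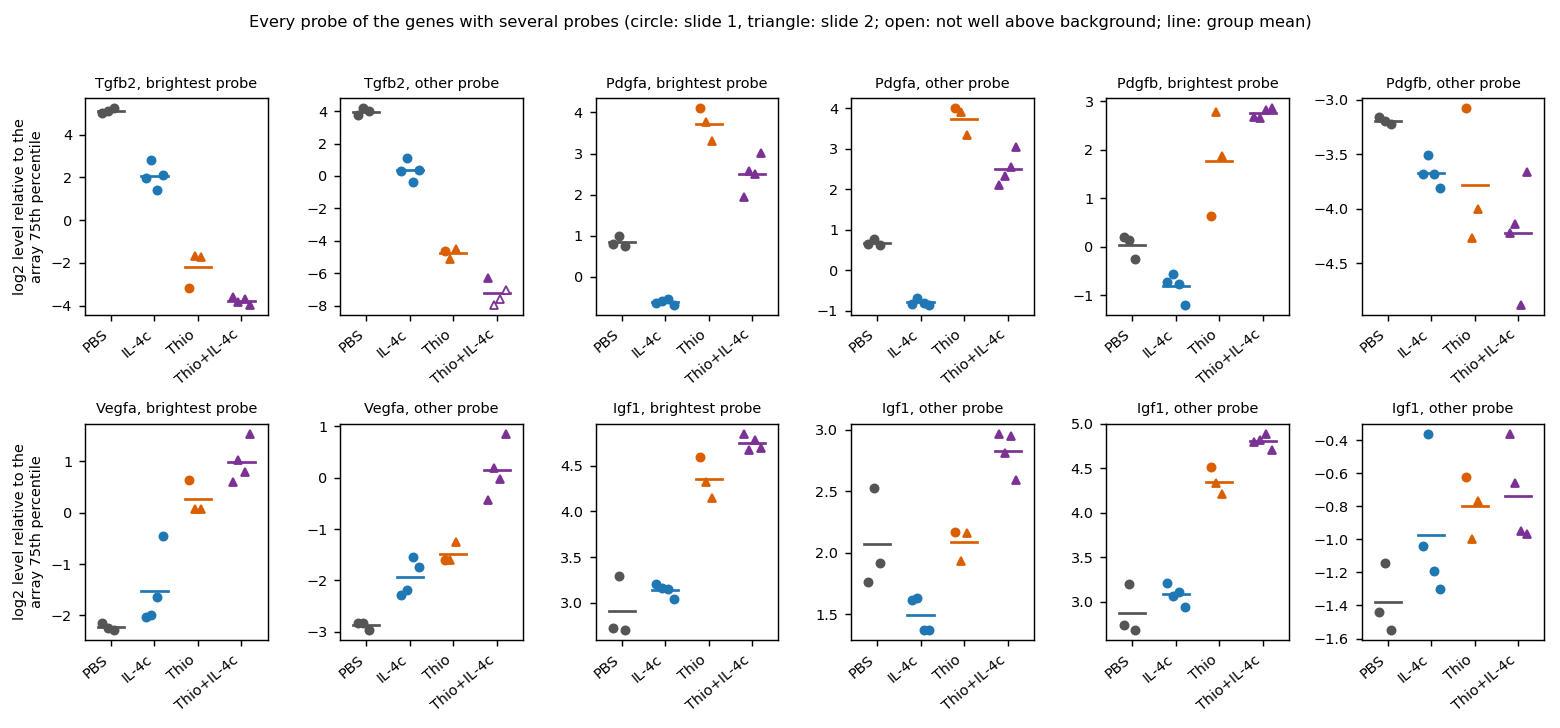
Log2 level relative to the array's 75th percentile (vertical axis) for every probe of the 5 genes with several, by group (horizontal axis). The 2 Pdgfb panels differ: the brighter probe is higher in both thioglycollate groups and the dimmer probe is not. The Igf1 panels differ in the rise from PBS to Thio, which ranges from 0.02 to 1.48 between probes.

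Counted together for IL-4c against PBS, none of the 10 genes was higher, 7 were lower and 3 did not pass. Over all genes 32.2% passed in either direction and 15.4% were lower. The members' median difference was -1.18, against -0.01 for all genes. The falls of Fn1 and Tgfb1 appeared only after scaling, as given above. All these arrays lay on slide 1. The 3 genes that did not pass were Pdgfb, Igf1 and Vegfa.

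For Thio against PBS, 5 of the 10 were higher, 4 were lower and 1, Tgfb1, did not pass. Over all genes 44.4% passed in either direction, 20.2% higher and 24.3% lower. The members' median was 0.52, against -0.09 for all genes. This comparison and that of IL-4c share the PBS arrays. The 4 that fell are the matrix genes Fn1 and Tgfbi with Ltbp1 and Tgfb2, and the 5 that rose are the growth factors Pdgfa, Pdgfb, Igf1, Vegfa and Hgf. The dimmer Pdgfb probe gave -0.59, and the rise did not pass on the Igf1 probes that gave 0.58 and 0.02. With the slide as a block, 8 of the 9 calls held and Pdgfb lost its call. That fit rests on Thio 1, the lone Thio array on the slide of the PBS arrays. It gave -2.06 for Fn1, -3.11 for Tgfbi, -9.39 for Ltbp1 and -8.29 for Tgfb2, and 3.25 for Pdgfa, 1.69 for Igf1, 2.87 for Vegfa and 1.36 for Hgf. Without Thio 1 all 9 calls held, at -2.21 for Fn1, -3.47 for Tgfbi, -9.52 for Ltbp1 and -6.85 for Tgfb2, and 2.69 for Pdgfa, 1.33 for Igf1, 2.31 for Vegfa and 0.73 for Hgf.

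For Thio+IL-4c against Thio, 2 of the 10 were higher, Fn1 and Tgfbi, 5 were lower and 3 did not pass. Over all genes 39.3% passed in either direction, 16.3% higher and 23% lower. The members' median was -0.21, against 0.04 for all genes. Within slide 2, which leaves out Thio 1, the values were 1.51 for Fn1, 2.57 for Tgfbi, -1.52 for Ltbp1, -0.71 for Tgfb1, -2.06 for Tgfb2, -1.03 for Pdgfa and -3.89 for Hgf.

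For Thio+IL-4c against IL-4c, 5 of the 10 were higher (Tgfbi, Pdgfa, Pdgfb, Igf1 and Vegfa), 2 were lower (Ltbp1 and Tgfb2) and 3 did not pass. Over all genes 70% passed in either direction, and the members' median was 0.90, against -0.21 for all genes. Ltbp1 was lower by -8.66 ± 0.24 (adjusted p = 3.2e-10), with 1 of 4 Thio+IL-4c arrays well above background and a range of -9.31 to -6.44 over the alternatives. Tgfb2 was 57.8-fold lower (-5.85 ± 0.34, adjusted p = 8.8e-08) and Pdgfa was 8.68-fold higher (3.12 ± 0.21, adjusted p = 3e-07). Each of these groups lay on a slide of its own, so the slide block ties them only through the Thio arrays. It kept all 7 calls, with Pdgfb at 1.87 in place of 3.57 and Tgfb2 at -7.30 in place of -5.85. The comparison shares arrays with those above and is no separate evidence for them.

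**Figure D3:**
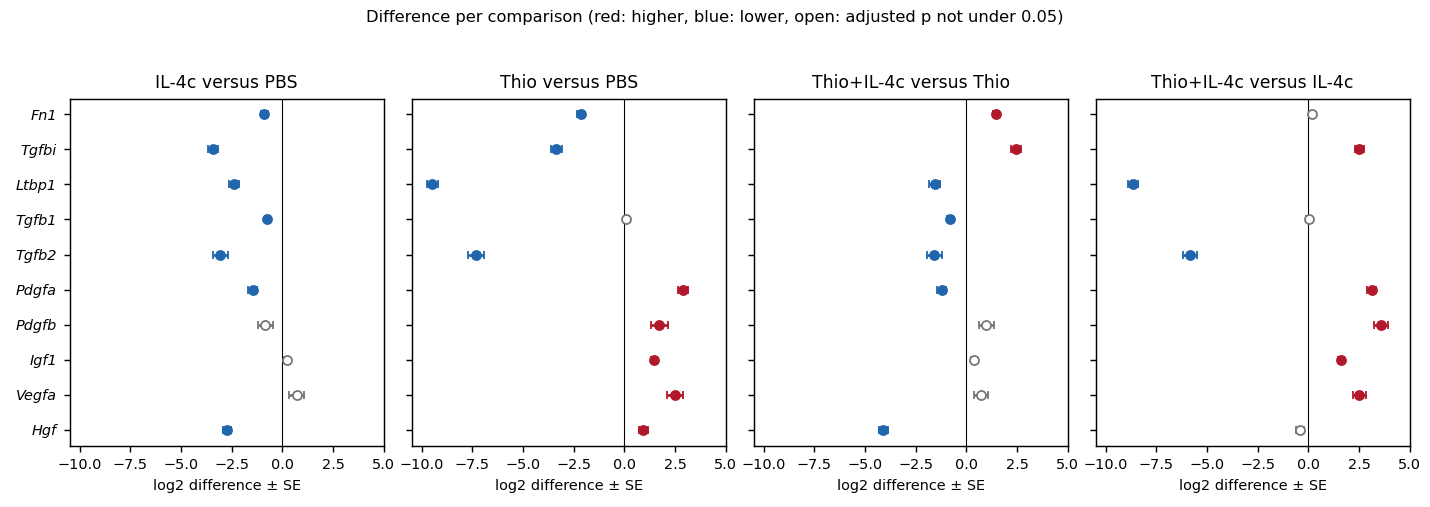
Log2 difference between group means ± SE (horizontal axis) of the 10 genes in 4 comparisons. Red points passed the test as higher, blue as lower and open points did not pass; Ltbp1 at -9.48 and Tgfb2 at -7.33 in Thio against PBS extend farthest.

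Whether IL-4c acted differently in the 2 settings was tested directly, as its difference in thioglycollate mice minus its difference without thioglycollate. These 2 differences share no arrays. The test passed as higher for 4 genes and as lower for 1, with 5 not passing. Over all genes 32.5% passed in either direction, 12.8% higher and 19.8% lower, so that 39.2% of the passing genes were higher (51.3% under normexp background correction). The members' median was 0.53, against -0.05 for all genes. The largest was Tgfbi, at 5.86 ± 0.34 (adjusted p = 5.3e-07), whose difference went from -3.41 to 2.45. Fn1 gave 2.35 ± 0.24 (adjusted p = 3.5e-05) and likewise changed sign, from -0.89 to 1.46, although the first of these was -0.22 under quantile normalization (adjusted p = 0.32), where the difference between the effects was 1.46. The fall of Fn1 with IL-4c alone appeared only after scaling, as given above. Pdgfb gave 1.83 ± 0.53 (adjusted p = 0.02) on the brighter probe and 0.04 on the dimmer. Neither IL-4c difference of Pdgfb passed on its own. Hgf gave -1.36 ± 0.30 (adjusted p = 0.0041), a larger fall in thioglycollate mice, with a range of -2.17 to -0.80 over the alternatives. Its Thio+IL-4c levels of -5.51 to -5.05 were dim. The lowest level well above background on those arrays was -6.74 to -6.19. Tgfb2 gave 1.48 ± 0.52 (adjusted p = 0.047), but 0.99 with the slide as a block or without Thio 1 (adjusted p = 0.065 in each).

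For the other five genes the difference between the effects of IL-4c did not pass. Tgfb1 gave -0.08 ± 0.17 (adjusted p = 0.73), Pdgfa 0.24 ± 0.32 (adjusted p = 0.58), Igf1 0.16 ± 0.21 (adjusted p = 0.58; 1.32 at 0.0036 over all probes on 1 of its other 3 probes) and Vegfa 0.02 ± 0.50 (adjusted p = 0.97). Ltbp1 gave 0.82 ± 0.36 (adjusted p = 0.11), which passed under background correction by normexp (1.82) and in the authors' deposited table (1.86). The standard errors of Vegfa and Ltbp1 leave room for sizeable differences.

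**Figure D4:**
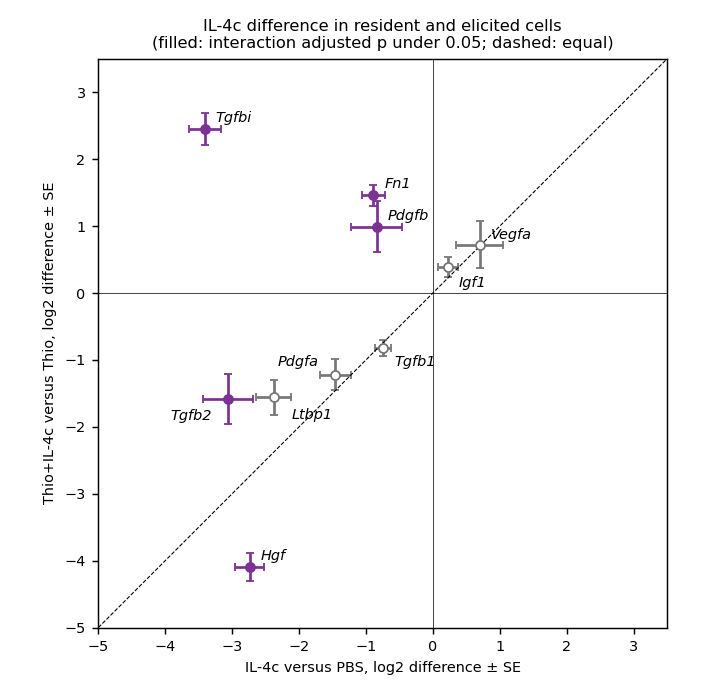
Log2 effect of IL-4c without thioglycollate (horizontal axis) against its log2 effect in thioglycollate mice (vertical axis), each ± SE, for the 10 genes. Filled points passed the test of the difference between the effects and the dashed line marks equal effects. Tgfbi, Fn1 and Pdgfb (brighter probe) lie at the upper left with opposite signs, and Hgf is low on both axes. Neither IL-4c effect of Pdgfb passed on its own.

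Across the 14 arrays the levels of some members ran together, and these correlations describe 4 groups more than 14 separate points. Ltbp1 and Tgfb2 correlated at r = 0.98, Tgfb1 and Hgf at 0.95, and Igf1 and Vegfa at 0.92. Ltbp1 and Igf1 correlated at -0.97 and Tgfb2 and Vegfa at -0.95. Fn1 and Tgfbi correlated at 0.76 over the 13 arrays with both.

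Among all genes tested, those most like each member over the same arrays were as follows, by Pearson's r. Fn1 was nearest to Eng (0.963, 13 arrays), the coreceptor endoglin, then Unc119 and Samsn1. Tgfbi was nearest to Unc119b (0.957), Pltp (0.955), a lipid transfer protein, and Edc3. Ltbp1 was nearest to Arhgap29 and Pygl (0.997 each) and Ssh2, and Tgfb2 to Adgre4 (0.989), Slc12a2 and Herc4. Tgfb1 was nearest to Tmem115 (0.978), Hexa (0.967), a lysosomal enzyme, and Mbp, and Hgf to Dhrs1 (0.984), Miga1 and Tspan13. Pdgfa was nearest to Blnk (0.988), Fmnl3 and Syt11, and Pdgfb to Hmgxb3 (0.990), Hoxb1 and Gzmc. Igf1 was nearest to Snx1 (0.981), Slc12a4 and Matk, and Vegfa to Tenm4 (0.970), Pole4 and Picalm.

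Counts for the pathway lists that follow stand beside 16.8% higher and 15.4% lower of all genes in IL-4c against PBS, 20.2% and 24.3% in Thio against PBS, and 16.3% and 23% in Thio+IL-4c against Thio. The 20 measured genes of TGF-beta receptors and Smad signalling, through which Tgfb1 and Tgfb2 act, held 1 higher and 9 lower gene in IL-4c against PBS, with a median of -0.52 against -0.01 for all genes. Tgfbr2, the type II receptor, had a mean level of 3.66 in PBS, 2.33 in IL-4c, 3.71 in Thio and 0.11 in Thio+IL-4c. In thioglycollate mice IL-4c lowered it by -3.60 ± 0.12 (adjusted p = 2.6e-09), more than in PBS mice, with a difference between the effects of -2.26 ± 0.16 (adjusted p = 2.1e-06). Its other probe gave -1.88 for the fall and -0.48 for the difference between effects. Tgfbr1, the type I receptor, gave -3.40 ± 0.13 (adjusted p = 6.5e-09) in thioglycollate mice on its brighter probe but 1.71 on its other, so its direction depends on the probe. Smad7, the inhibitory Smad that the pathway itself induces, fell by 3.17 in IL-4c against PBS (SE 0.36, adjusted p = 3.2e-05), with 1 of 4 IL-4c arrays well above background.

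Against PBS, Thio had 4 higher and 10 lower genes of these 20, with a median of -0.38 against -0.09 for all genes, and 4 higher and 4 lower with the slide as a block. Smad3, a carrier of the TGF-beta signal, fell by 3.24 on the log2 scale (SE 0.15, adjusted p = 2e-08). Tgfbr3, the coreceptor betaglycan, which presents the Tgfb2 ligand, fell by 3.87 (SE 0.18, adjusted p = 2.1e-08). Acvrl1, a type I receptor for BMP9 and TGF-beta in endothelium, rose by 4.54 (SE 0.20, adjusted p = 1.3e-08). For Thio+IL-4c against Thio, 3 were higher and 8 lower, and endoglin (Eng) was among the higher at 0.98 ± 0.11 (adjusted p = 1.5e-05).

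**Figure D5:**
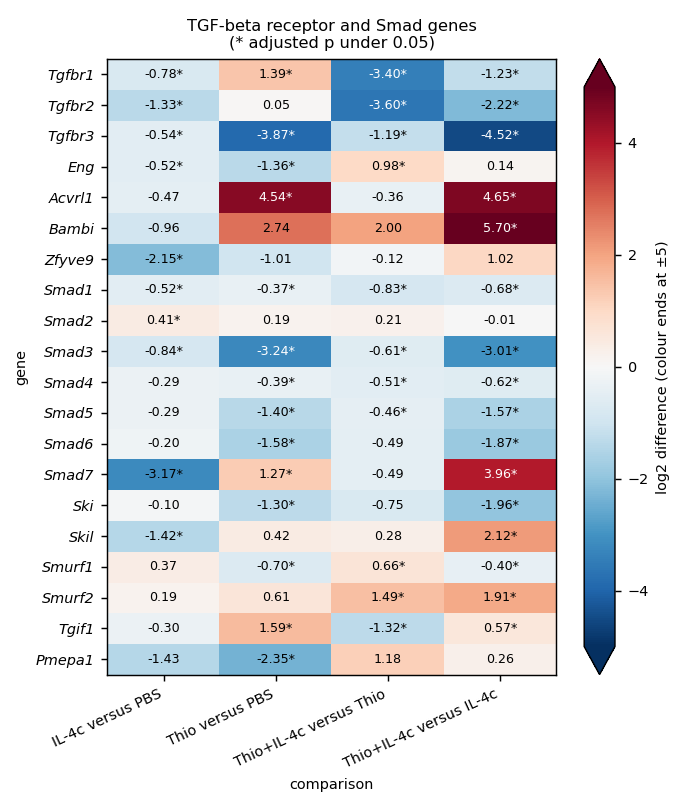
Log2 difference between group means (colour, ending at -5 and 5) of the 20 TGF-beta receptor and Smad genes (rows) in 4 comparisons (columns), with * for genes that passed the test. Tgfbr2 is lower in both IL-4c comparisons, and Smad3 and Tgfbr3 are lower in both thioglycollate comparisons.

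Latency and activation of TGF-beta was followed in 16 further genes, and 9 of them were higher and 4 lower in Thio against PBS (median 0.67), where 20.2% of all genes were higher and 24.3% lower (median -0.09). Mmp14, a membrane protease that can release the latent ligand, rose by 1.74 ± 0.29 with IL-4c alone (adjusted p = 0.00053) and by 3.79 ± 0.31 with thioglycollate alone (adjusted p = 1.8e-06), and fell by 1.73 (SE 0.29, adjusted p = 0.00047) when IL-4c was added to thioglycollate. Thbs1, the activator thrombospondin 1, fell by 3.57 in Thio against PBS (SE 0.45, adjusted p = 6.2e-05). Tgm2, a transglutaminase that crosslinks matrix, rose by 3.74 ± 0.37 with IL-4c alone (adjusted p = 1.1e-05), by 3.39 ± 0.40 in Thio against PBS (adjusted p = 3.8e-05) and by 2.60 ± 0.37 with IL-4c in thioglycollate mice (adjusted p = 0.00015). In IL-4c against PBS 4 of the 16 were higher and 3 lower (median 0.03), and in Thio+IL-4c against Thio 3 were higher and 6 lower (median -0.63).

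The 20 TGF-beta response genes divided without a common direction. In IL-4c against PBS 3 were higher and 4 lower (median -0.16), in Thio against PBS 4 and 7 (median -0.13), and in Thio+IL-4c against Thio 5 and 4 (median 0.40). Cdkn2b, a cell cycle inhibitor that TGF-beta induces in epithelium, moved like Tgfbi: it fell by 2.58 with IL-4c alone (SE 0.33, adjusted p = 8.2e-05), fell by 5.06 with thioglycollate alone (SE 0.36, adjusted p = 5.4e-07), and rose by 2.45 ± 0.33 with IL-4c in thioglycollate mice (adjusted p = 1e-04). The difference between its IL-4c effects was 5.03 ± 0.47 (adjusted p = 1.2e-05). Id1 fell by 4.11 in Thio against PBS (SE 0.40, adjusted p = 8.7e-06). Smad7 and some others belong to both this list and the receptor list.

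Of 27 measured matrix protein genes other than Fn1 and Tgfbi, 3 were higher and 6 lower in IL-4c against PBS (median -0.12), 8 and 4 in Thio against PBS (median 0.26, with 5 and 5 under the slide block), and 1 and 7 in Thio+IL-4c against Thio (median -0.03). Spp1, the adhesion protein osteopontin, ran opposite to Tgfbi. Its mean level was -0.72 in PBS, 3.43 in IL-4c, 5.42 in Thio and 1.27 in Thio+IL-4c. IL-4c raised it by 4.15 ± 0.40 in PBS mice (adjusted p = 9.1e-06) and lowered it by the same size, -4.15 ± 0.40, in thioglycollate mice (adjusted p = 7.2e-06). The difference between these effects was -8.30 ± 0.57 (adjusted p = 1.5e-06). Col1a1, a chain of type I collagen, reached at least 12.9-fold more in Thio than in PBS (adjusted p = 0.00016), where none of the 3 arrays was well above background.

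Matrix crosslinking and collagen processing gave 1 higher and 6 lower of 18 genes in IL-4c against PBS (median -0.08), 6 and 5 in Thio against PBS (median 0.07, with 1 and 3 under the slide block) and 2 and 3 in Thio+IL-4c against Thio (median 0.26). F13a1, the crosslinking subunit of coagulation factor XIII, which joins fibronectin to fibrin, had a mean level of 4.65 in PBS and -3.13 in IL-4c. It fell by 7.78 with IL-4c alone (SE 0.27, adjusted p = 4.4e-09), with -4.18 on its other probe, and by 1.60 in thioglycollate mice (SE 0.27, adjusted p = 0.00055). The 16 fibronectin receptors and partners had 2 higher and 4 lower in IL-4c against PBS, 8 and 5 in Thio against PBS (5 and 2 under the slide block), and 2 and 8 in Thio+IL-4c against Thio (median -0.63). Itgb5, an integrin chain that pairs with the alpha V chain and binds vitronectin, was not well above background on any IL-4c array, where it was at least 24.8-fold lower than in PBS (adjusted p = 9.3e-08). It rose by 6.02 ± 0.37 in Thio against PBS (adjusted p = 1.8e-07) and fell by 3.53 with IL-4c in thioglycollate mice (SE 0.35, adjusted p = 7.8e-06).

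The 11 receptors of PDGF, IGF1, VEGF and HGF had 2 higher and 2 lower in IL-4c against PBS (median 0.36), 5 and 2 in Thio against PBS (median 0.82, with 4 and 1 under the slide block), and 1 and 3 in Thio+IL-4c against Thio (median 0.21). Flt1, a high-affinity receptor of the Vegfa product, rose by 5.48 ± 0.36 with IL-4c alone (adjusted p = 4.5e-07) and by 4.19 ± 0.36 with IL-4c in thioglycollate mice (adjusted p = 2.8e-06). Nrp1, a coreceptor of the same ligand, fell by 0.90 and 2.19 in these comparisons (SE 0.15 in each, adjusted p = 0.0005 and 4.3e-07). Igf1r, the receptor of the Igf1 product, fell by 1.72 with IL-4c alone (SE 0.36, adjusted p = 0.0029).

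Of 22 measured related growth factors, 6 were higher and 4 lower in IL-4c against PBS (median 0.15), 9 and 2 in Thio against PBS (median 0.79), which became 5 and 3 with the slide as a block, and 4 and 6 in Thio+IL-4c against Thio (median 0.28). Hbegf, a ligand of the EGF receptor that acts in wound closure, rose by 3.14 ± 0.21 with IL-4c in thioglycollate mice (adjusted p = 3.5e-07), and its mean level was -1.97 in PBS and -1.95 in IL-4c. The difference between its effects was 3.12 ± 0.29 (adjusted p = 1.2e-05). Vegfb, a relative of Vegfa, fell by 2.57 in thioglycollate mice given IL-4c (SE 0.21, adjusted p = 1.5e-06). Bmp2, a ligand of the TGF-beta superfamily, fell by 1.89 with IL-4c alone (SE 0.16, adjusted p = 2.8e-06) and by 2.20 with IL-4c in thioglycollate mice (SE 0.16, adjusted p = 7e-07).

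Proteins that hold or release Igf1 and Hgf were also counted. Of 9 measured IGF binding proteins and their proteases, 0 were higher and 1 was lower in IL-4c against PBS (median -0.08) and the same counts held in Thio against PBS (median 0.65), while Thio+IL-4c against Thio had 1 and 2 (median 1.66). The lower one in both comparisons with PBS was Igfbp4, which fell by 2.49 with IL-4c (SE 0.19, adjusted p = 1.3e-06) and by 2.35 with thioglycollate (SE 0.20, adjusted p = 2.9e-06). HGF activation gave 1 and 2 of 11 genes in IL-4c against PBS (median -0.15), 3 and 3 in Thio against PBS (median 0.15) and 1 and 2 in Thio+IL-4c against Thio (median -0.22). Hpn, the protease hepsin, which can cleave the Hgf precursor, fell in all 3 (-1.30 ± 0.19, adjusted p = 0.00017; -2.52 ± 0.20, adjusted p = 1.4e-06; -1.25 ± 0.19, adjusted p = 0.0002).

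Hypoxia response genes, a group to which Vegfa belongs by its known induction at low oxygen, were counted without it. Of 18 genes, 8 were higher and 2 lower in IL-4c against PBS (median 0.66), where 16.8% of all genes were higher and 15.4% lower. In Thio against PBS 9 were higher and 3 lower (median 0.44), beside 20.2% and 24.3% of all genes. In Thio+IL-4c against Thio 9 were higher and 1 lower (median 0.82), beside 16.3% and 23% of all genes. Slc2a1, a glucose transporter, rose by 2.58 ± 0.22 with IL-4c (adjusted p = 3.2e-06) and by 3.74 ± 0.23 with thioglycollate (adjusted p = 2e-07). The 11 TGF-beta family antagonists and BMP pathway genes had 1 higher and 2 lower, 2 and 3, and 1 and 3 in the same comparisons (medians -0.25, -0.32 and -0.23). Fstl1, a secreted follistatin relative, rose by 2.35 ± 0.18 with thioglycollate (adjusted p = 8.7e-07) and fell by 3.79 when IL-4c was added to it (SE 0.16, adjusted p = 1.5e-08).

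In Thio+IL-4c against IL-4c, where 27.9% of all genes were higher and 42.1% lower, 6 of the lists gave these counts, with those under the slide block in brackets. Latency and activation gave 6 higher and 6 lower (5 and 2), receptors and Smads 6 and 10 (6 and 6), response genes 7 and 9 (5 and 5) and matrix proteins 10 and 10 (2 and 6). Growth factor receptors gave 5 and 2 (1 and 1) and related growth factors 8 and 4 (2 and 4).

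Fibroblasts, mesothelial cells and platelets also make several of these factors, so their markers were read on the same arrays. A summed level here is the sum of a list's linear values, each relative to the array's 75th percentile. Of 16 mesothelial and stromal markers, 7 were higher and 1 lower in Thio against PBS, 1 and 5 in IL-4c against PBS, and 0 and 4 in Thio+IL-4c against Thio. Their summed level was 2.51 to 2.66 in PBS, 2.48 to 3.14 in IL-4c, 4.12 to 6.00 in Thio and 3.03 to 3.70 in Thio+IL-4c. The defining markers were dim: Msln had mean levels of -4.81, -4.59, -2.70 and -3.67 in these groups, and Upk3b was well above background on 1, 2, 3 and 4 arrays. The summed level was thus highest in Thio, where Pdgfa and Hgf were highest and Fn1 was lowest, and its part in these results was not tested.

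The 11 platelet markers summed to 222 to 247 in PBS, 49.0 to 62.2 in IL-4c, 28.6 to 40.7 in Thio and 9.15 to 12.9 in Thio+IL-4c, of which Pf4 made up 98.6%, 93.3%, 87.5% and 65.3%. The defining marker Ppbp ran the other way, with mean levels of -5.33, -6.38, -1.86 and -0.68, and Itga2b had -5.06, -3.62, -3.58 and -2.13. Pdgfb on its brighter probe was highest in the same group as Ppbp, and the part of platelets in that result was not tested.

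Markers of the macrophage populations themselves were read too. The 10 resident peritoneal macrophage markers were all lower in Thio against PBS, with 6 of 10 lower in IL-4c against PBS, and their summed level was 820 to 892 in PBS, 296 to 341 in IL-4c, 6.54 to 8.93 in Thio and 13.8 to 16.4 in Thio+IL-4c. Ltbp1 and Tgfb2 were high in the first of these, intermediate in the second and low in the last 2. The 11 macrophage markers summed to 1130 to 1290, 369 to 412, 315 to 431 and 194 to 222, with 9 of 11 lower in both comparisons with PBS. The 7 monocyte-derived cell markers summed to 13 to 16.4, 161 to 184, 24.6 to 29.8 and 185 to 225, led by Chil3, which interleukin 4 itself induces.

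Markers of other cells that the gate could hold were summed in the same way. B cell markers gave 11.4 to 19.2 in PBS and 3.48 to 7.42 in the other groups. Over all arrays, T and NK cell markers gave 15.4 to 28.6, neutrophil markers 35.3 to 68.2 and dendritic cell markers 2.44 to 9.23. The neutrophil sum was led by Csf3r, while the defining marker S100a8 had mean levels of -0.48 in PBS, -3.55 in IL-4c, 1.36 in Thio and 0.81 in Thio+IL-4c. Mast cell markers gave 13.5 to 14.7, 7.67 to 10.9, 2.27 to 4.7 and 2.00 to 2.67 in these groups, the order that Ltbp1 and Tgfb2 followed. The defining mast cell marker Cpa3 had mean levels of 0.36, -2.13, -0.91 and -1.55. Eosinophil markers gave 3.94 to 10.5 in PBS, IL-4c and Thio but 180 to 236 in Thio+IL-4c, led by Ear2, while the defining marker Epx had a mean level of -3.62 there and -7.44, -6.19 and -4.87 in PBS, IL-4c and Thio. Fn1 and Tgfbi rose in the same group against Thio, and the part of eosinophils or of any of these cells in the members' values was not tested.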

How the data were processed

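Per the file headers, the deposited scanner tables came from Agilent Feature Extraction and hold a processed signal intensity per spot, already corrected for background by the authors' scanner software. The authors also deposited a log2 table of the same arrays; every column has a median of 9.2341 and correlates with the log2 median signal at 0.9889 to 0.9951, the sources used here do not give its method, and it served as an alternative. Control spots (3671) and 113 to 165 outlier spots per array were left out, and no spot was saturated. Spots of a probe were averaged, 27235 of 55681 probes were named through their RefSeq accession and 28446 stayed unnamed.

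The log2 of the processed signal minus each array's 75th percentile was fitted with limma 3.58.1 in R 4.3.3, with all 14 arrays and 1 mean per group. Of several probes the brightest stood for the gene, kept where 3 or more arrays had it well above background. Moderated tests were two-sided and adjusted by Benjamini-Hochberg over 20342 genes, with a threshold of 0.05; the script was tested on simulated data. The number of arrays limits the precision. Alternatives were quantile normalization, normexp background correction with an offset of 50 (on the median signal), the authors' table, other dim-probe filters, the mean of a gene's probes, array weights, slide and replicate blocks, smaller fits and leaving out each array.

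Where a group was not well above background on any array, the fold is given as a bound, against the lowest signal well above background on those arrays or the probe's own if higher. All members are named; from each list and comparison, up to 2 called genes of greatest rise and 2 of greatest fall could be named, of which the text shows a part, and each member is followed by the 3 genes most correlated with it, leaving out clone and predicted names. Arg1, Retnla, Gata6, Itgam, Adgre1 and Csf1r check the labels. The members and lists were chosen with earlier results of these data known.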

Additional observations from a re-analysis of the deposited data

Results flagged for a closer look

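IL-4c had unlike effects with and without thioglycollate on 5 of the 10 genes, by a limma test of the difference between the effects adjusted over all genes, which 32.5% of all genes passed. The difference, in log2 units, was 5.86 for Tgfbi, 2.35 for Fn1, 1.83 for Pdgfb, 1.48 for Tgfb2 and -1.36 for Hgf. That of Pdgfb was seen on 1 of its 2 probes, and that of Tgfb2 lost its call in 14 of 24 alternatives, among them those without Thio 1 and with the slide as a block.

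Single arrays stood apart from the rest of their group in 2 of 19 groups of 4 arrays that were looked at, where chance alone marks about 1 in 20. Ltbp1 was 2.43 on IL-4c 4 against 2.17 to 2.20 on the other 3 arrays, and Hgf was -5.05 on Thio+IL-4c 4 against -5.51 to -5.43.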

How the results depend on the processing

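Over 990 recomputed differences of the 10 genes, 917 kept their direction and side of the threshold, 21 lost a call, 28 gained one and 24 changed sign, and all 681 that were called under the main setting kept their sign. The count of all genes called for Thio against PBS, 9041, became 14500 with array weights, 6013 with the slide as a block, 3904 with only those 2 groups and 6227 to 13876 when single arrays were left out, highest without Thio 1. For Thio+IL-4c against IL-4c, 14245 became 5437 with the slide as a block and 13312 to 13736 without single arrays. Signs changed only for differences that had not passed. In the authors' table Thio+IL-4c against IL-4c gave -0.15 for Fn1 and -0.33 for Tgfb1, and the difference between IL-4c effects gave -0.17 for Pdgfa, -0.30 for Igf1 and -0.11 for Vegfa. With array weights Tgfb1 gave -0.06 for Thio against PBS and 0.08 for the difference between effects, and with the slide as a block that difference was 0.03, and Hgf gave 0.21 for Thio+IL-4c against IL-4c. When single arrays were left out, the difference between IL-4c effects ran from -0.16 to 0.38 for Vegfa, from -0.03 to 0.28 for Igf1 and from -0.17 to 0.05 for Tgfb1, and Tgfb1 ran from -0.04 to 0.18 for Thio against PBS and from -0.02 to 0.03 for Thio+IL-4c against IL-4c. The Tgfb2 difference between effects ran from 0.99 to 1.73 and kept its call only without IL-4c 2, Thio 2 or Thio 3. Under normexp the share of genes called higher for the difference between effects was 51.3% in place of 39.2%, and the median of all genes became -0.17 in place of -0.01 for IL-4c against PBS and 0.11 in place of -0.05 for the difference between effects. In the authors' table the median was -0.43 in place of -0.21 for Thio+IL-4c against IL-4c and -0.20 for the difference between effects. The causes of these changes were not tested. Replicate numbers did not pair the arrays: 19 same-numbered pairs of arrays correlated at -0.45 to 0.37 (median 0) and 54 other pairs at -0.42 to 0.43 (median 0.01). The replicate block changed 1 of 50 calls of the members, the Tgfb2 difference between effects, which kept 1.48 at an adjusted p of 0.069. Of 40 group levels, 25 moved by less than 1 SD under quantile normalization and 24 with the mean of a gene's probes. Signal over background limits Ltbp1 in Thio+IL-4c. Ltbp1 in Thio and Hgf in Thio+IL-4c were dim too, though well above background.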
